A study of Mus musculus with 2 samples.

Results

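Ribosome biogenesis factors are the proteins that cut, fold and modify ribosomal RNA precursors and join them to ribosomal proteins in the nucleolus. The members were chosen by gene symbol from the series: names beginning with Rrp, Utp, Nop or Nol and a digit, Imp3 and Imp4, and 15 further named factors, with pseudogenes left out. This gave 54 genes of 24675 with a symbol, all of them protein-coding. Affymetrix Mouse Gene 2.0 ST arrays recorded expression in C57Bl/6 mouse embryos at embryonic day 10.5, in tissue cut by laser from 2 places beside the dorsal aorta. The dorsal piece lay above the vessel, below the notochord, and the ventral piece under it, and both came from the same embryos. The labels name no transgene or treatment, and no source used here gives how many embryos each array stands for. Each tissue had 1 array, labelled biological replicate 4, so the differences below come with no error, replicate check or p-value.

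Ribosome assembly starts in the nucleolus, where RNA polymerase I transcribes a long precursor that holds the ribosomal RNAs of both subunits. A large complex on the growing transcript, the small-subunit processome, is built around the U3 small nucleolar RNA and releases the small-subunit precursor by cleavage. Other factors, among them the complex of Pes1, Bop1 and Wdr12, mature the large-subunit precursor. Small nucleolar ribonucleoproteins (snoRNPs) methylate the RNA (box C/D) or convert uridine to pseudouridine (box H/ACA). Growing and dividing cells, which make up much of an embryo at this stage, make ribosomes at a high rate.

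Values are log2 expression after robust multi-array averaging (RMA). Olfactory and vomeronasal receptor genes, 1365 in all, served as a reference for genes thought silent here, and their 95th percentile over both arrays, 3.92, is called the background mark. A second mark, their 99th percentile, was 5.48. A gene was kept when its higher array reached 3.10, the median of all genes' mean levels. Differences are ventral minus dorsal on the log2 scale, and a gene is called apart, dorsal-high or ventral-high, when they reach 2-fold. Where the lower array was under the background mark, the fold is a lower bound computed against that mark, and no fold is given where both arrays were under it. With 2 arrays, their number limits the precision of every value. The median difference of the 13982 kept genes was -0.12, and it varied with level. It was 0.025 over the 7101 genes above the background mark on at least 1 array, and 0.34 over the 2628 above the second mark. Members are best read beside genes of like level.

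Rrp7a and Rps19bp1, both factors of the small subunit, were far higher in the dorsal piece. Rrp7a, a component of the small-subunit processome, was measured at 11.69 dorsally and 5.44 ventrally, a 75.9-fold difference. Rps19bp1, a nucleolar protein that binds the small-subunit protein Rps19 and the deacetylase Sirt1, was measured at 9.89 and 4.24, a 50.2-fold difference. For both genes the dorsal value lay far above both marks, while the ventral value lay between them. Against the second mark in place of the measured ventral level, the folds were at least 73.7 for Rrp7a and at least 21.3 for Rps19bp1. Of 52 kept members, 45 were within 2-fold. In bulk tissue such as this, fewer cells of a type and less RNA per cell cannot be told apart.

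In the opposite direction, Tsr1 and Rrp1 were higher ventrally. Tsr1, a factor of late small-subunit precursors that resembles a translational GTPase, was measured at 4.84 dorsally and 7.07 ventrally, a 4.68-fold difference, or at least 3.0-fold against the second mark. Rrp1, a nucleolar protein of the large-subunit pathway, was measured at 5.56 and 7.09, a 2.90-fold difference. Both genes exceeded the background mark on both arrays, and the dorsal value of Tsr1 lay under the second mark.

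The count of members apart was small in each direction. Of the 52 kept members, 5 (9.62%) were dorsal-high, beside 4.88% of all kept genes. Ventral-high members numbered 2 (3.85%), beside 9.44% of all kept genes. Of the 5, Fbl was under the background mark on both arrays, so it was dorsal-high by the rule on kept genes only and its difference was not measurable above background. Over the 34 members above that mark on at least 1 array, 4 (11.8%) were dorsal-high and 2 (5.88%) ventral-high, beside 8.46% and 17.7% of all kept genes at that level. With differences centred on the median of the kept genes, both counts over the 52 became 3 (5.77%), beside 3.77% of all kept genes in the dorsal and 10.9% in the ventral direction. Quantile normalization gave 6 dorsal-high (11.8%) and 2 ventral-high members (3.92%) of 51 kept, beside 5.79% and 8.39% of all kept genes. The loess on level gave 5 (9.62%) and 2 (3.85%), beside 4.56% and 9.92%. A loess on genomic span gave 4 (7.69%) and 3 (5.77%), beside 3.87% and 10.3%. Among the 16 members above the second mark on at least 1 array, 5 (31.2%) were apart in either direction, beside 42.9% of all kept genes at that level. A gene can pass either mark through its higher array alone, which favours genes that are apart. Of all kept genes 14.3% were apart, and 26.2% of those above the background mark on at least 1 array. The median difference of the kept members was -0.029, with quartiles of -0.49 and 0.28, beside -0.42 and 0.31 for all kept genes. These are descriptions of this pair of arrays.

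**Figure D1:**
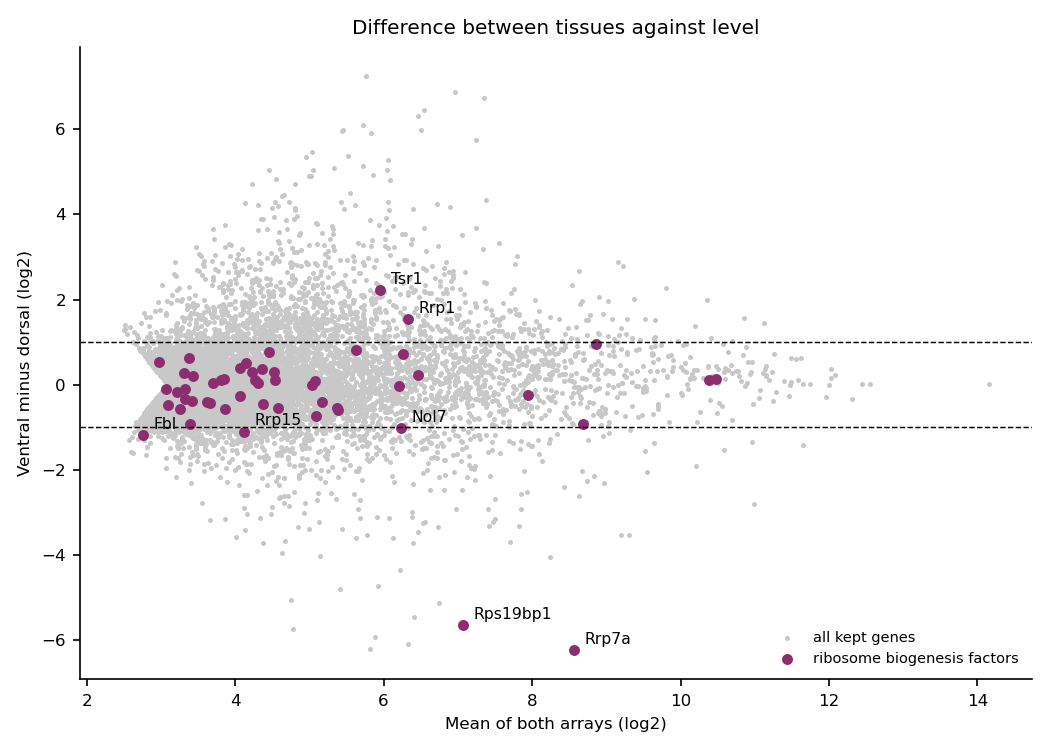
Ventral minus dorsal difference (log2) against the mean of both arrays (log2) for all 13982 kept genes (grey points) and the 52 kept ribosome biogenesis factors (purple points). Dashed lines mark 2-fold; Rrp7a at -6.25 and Rps19bp1 at -5.65 lie far below the other factors, which run from -1.18 to 2.23.

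A larger share of members than of all genes was above background. The background mark was exceeded by 32 of 54 members (59.3%) in the dorsal array and by 32 in the ventral array, beside 24.2% and 23.8% of all genes. Of the 54, 30 exceeded it on both arrays, 4 on only 1 and 20 on neither. The 4 were Rrp15 and Utp6, above it in dorsal tissue, and Nhp2 and Nol10, above it in ventral tissue, and only Rrp15 was called apart. The 20 included genes that dividing cells are thought to need, such as Fbl, Bop1, Pes1, Wdr12 and Nop2, so a value under the mark does not show that a gene was silent. Of 63 cytosolic ribosomal protein genes, taken by symbol, 20 were likewise under the mark on both arrays. Among these 20 were paralogs such as Rpl3l and Rpl10l, which not every cell is thought to use.

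**Figure D2:**
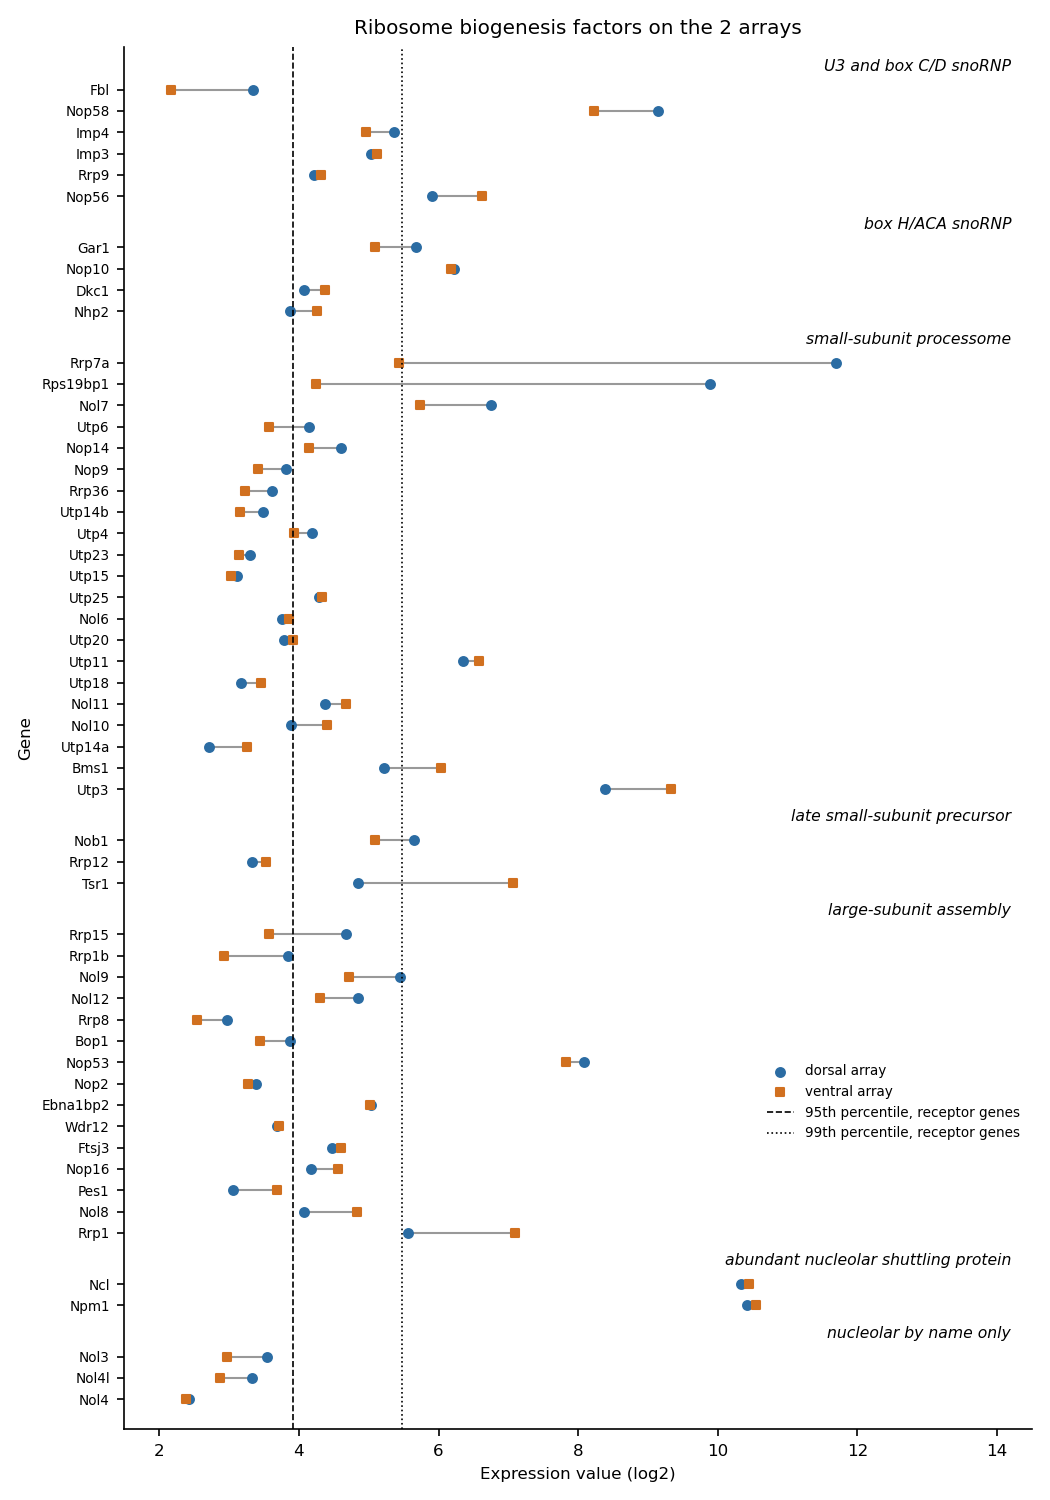
Expression values (log2) of the 54 ribosome biogenesis factors in the dorsal array (blue circles) and the ventral array (orange squares), grouped by role and ordered by difference. The vertical lines are the 95th (3.92, dashed) and 99th (5.48, dotted) percentiles of receptor genes; Rrp7a and Rps19bp1 have by far the longest gaps.

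The small-subunit processome had 21 kept members, of which 3 (14.3%) were dorsal-high and 0 ventral-high, beside 4.88% and 9.44% of all kept genes; the counts of the smaller groups below stand beside the same shares. Beside Rrp7a and Rps19bp1, the third was Nol7, a nucleolar protein of early precursor cleavage, at 6.75 dorsally and 5.73 ventrally, a 2.04-fold difference. It was just past the threshold and fell under it after centring, at -0.91, and after a loess on genomic span, at -0.83. Utp3, a processome protein also known as Sas10, was higher ventrally at 9.33 against 8.38, or 1.93-fold, and passed 2-fold after centring, at 1.07. Bms1, the GTPase of the processome, was higher there at 6.03 against 5.22, or 1.76-fold. Neither Utp3 nor Bms1 reached 2-fold on the deposited values.

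The other processome members lay closer together between the arrays. Utp11, a further protein of the particle, was at 6.35 dorsally and 6.57 ventrally. Nop14, an assembly factor of the same particle, was at 4.60 and 4.15. Utp4, a subunit of the first complex to bind the transcript, was at 4.19 and 3.93, and Nol11, a vertebrate subunit of that complex, at 4.37 and 4.67. None of these moved by as much as 1.5-fold. Utp25 was at 4.28 and 4.33. Utp6, of the second complex to bind, was at 4.15 and 3.58, and Nol10 at 3.88 and 4.40, each above the mark on only 1 array. The remaining 9 (Nop9, Rrp36, Utp14b, Utp23, Utp15, Nol6, Utp20, Utp18 and Utp14a) never exceeded the mark, so no difference could be detected at their signal. Utp14b is a retrogene copy of Utp14a, so probes for these 2 may read each other.

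Late small-subunit factors comprised Tsr1, Nob1 and Rrp12. Nob1, the endonuclease that makes the final cut of the small-subunit RNA, was at 5.65 dorsally and 5.09 ventrally, or 1.47-fold. It lay in the opposite direction to Tsr1, which acts on the same late particle. Rrp12, an export factor, was under the mark on both arrays at 3.32 and 3.53.

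Of 6 genes of the U3 and box C/D snoRNP, 1 was called apart. Fbl, the methyltransferase fibrillarin, was at 3.35 dorsally and 2.16 ventrally, a difference of -1.18 that lay under the background mark throughout, so no fold is given; after a loess on level it was -0.57. Nop58, a core protein of the same particle, was higher dorsally at 9.14 against 8.22, or 1.88-fold, and passed 2-fold with the columns quantile-normalized, at -1.14, and with the loess on level, at -1.18. Its partner Nop56 was higher ventrally at 6.62 against 5.91, or 1.64-fold. Nop56 and Nop58, which pair in one particle, thus differed in opposite directions, each by less than 2-fold. The U3 proteins lay closer together: Imp3 was at 5.03 and 5.12, Imp4 at 5.37 and 4.96, and Rrp9, which is specific to the U3 particle, at 4.21 and 4.31.

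All 4 proteins of the box H/ACA snoRNP were within 2-fold. Gar1 was at 5.68 dorsally and 5.08 ventrally, Nop10 at 6.22 and 6.18, and Dkc1, the pseudouridine synthase dyskerin, at 4.07 and 4.38. Nhp2 was at 3.88 and 4.27. The widest of these differences was 1.51-fold, for Gar1.

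Large-subunit assembly factors numbered 15, of which 14 were kept, 1 was ventral-high (Rrp1) and 1 dorsal-high. The latter was Rrp15, a nucleolar factor of the large-subunit precursor, at 4.68 dorsally and 3.57 ventrally, a bound of at least 1.69-fold; its difference of -1.11 became -0.99 after centring. Rrp1b, the paralog of Rrp1, was under the mark on both arrays at 3.85 and 2.92, so a difference like that of Rrp1 was not detectable for it. Nol8, a nucleolar RNA-binding protein, was higher ventrally at 4.83 against 4.07, or 1.70-fold. Nol9, a polynucleotide kinase that acts on the spacer between the large-subunit RNAs, was higher dorsally at 5.45 against 4.72, or 1.66-fold. Both were within 2-fold.

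Further large-subunit factors differed little. Nop53, which brings the RNA exosome to the precursor, was at 8.08 dorsally and 7.83 ventrally. Nol12 was at 4.85 and 4.30, and Nop16 at 4.18 and 4.56. Ebna1bp2, a scaffold of early large-subunit particles, was at 5.04 and 5.02, and Ftsj3, a ribosomal RNA methyltransferase, at 4.48 and 4.60. Pes1, Bop1 and Wdr12, which form 1 complex, were all under the mark on both arrays: Pes1 was at 3.06 and 3.69, Bop1 at 3.88 and 3.45, and Wdr12 at 3.69 and 3.72. Nop2 and Rrp8, RNA methyltransferases, were also under it.

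Ncl and Npm1, which encode the nucleolar proteins nucleolin and nucleophosmin, were nearly equal in the 2 tissues. Ncl was at 10.34 dorsally and 10.44 ventrally, and Npm1 at 10.41 and 10.55. These differences, 0.10 and 0.14, became 0.22 and 0.26 after centring, and both turned below 0 with quantile normalization, at -0.062 and -0.016, and with the loess on level, at -0.17 and -0.14. The rule also took in Nol3, the apoptosis repressor ARC, and Nol4 and Nol4l, which are nucleolar by name and not known as assembly factors. All 3 were under the background mark on both arrays, between 2.38 and 3.54.

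Rrp7a and Rps19bp1 lie on the same chromosome, so their surroundings were examined. Mouse chromosome 15 held 5 members, and the other three, Bop1, Nol12 and Utp23, were within 2-fold. The nearest measured coding genes on either side did not share the large differences. Beside Rps19bp1, Atf4, a transcription factor of the stress response, was at 6.58 dorsally and 6.74 ventrally, and Cacna1i was under the mark. Beside Rrp7a, Poldip3 was at 7.02 and 6.39, or 1.54-fold, and Nfam1 was under the mark. Serhl overlaps Rrp7a and was under the mark at 3.78 and 2.87. Over all 7 members called apart, 1 of 14 flanking genes was itself apart. It was Cstb, the protease inhibitor cystatin B, next to Rrp1. Cstb was at 3.83 dorsally and 5.86 ventrally, or at least 3.83-fold in the direction of Rrp1. Several of the 14, such as Sgsm2 and Smg6 beside Tsr1, were under the mark on both arrays, so no difference could be detected for them. Some of the 14, Sgsm2 and Smg6 among them, were too low to be kept. The 14.3% of all kept genes that were apart is therefore not a like comparison for the 14.

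**Figure D3:**
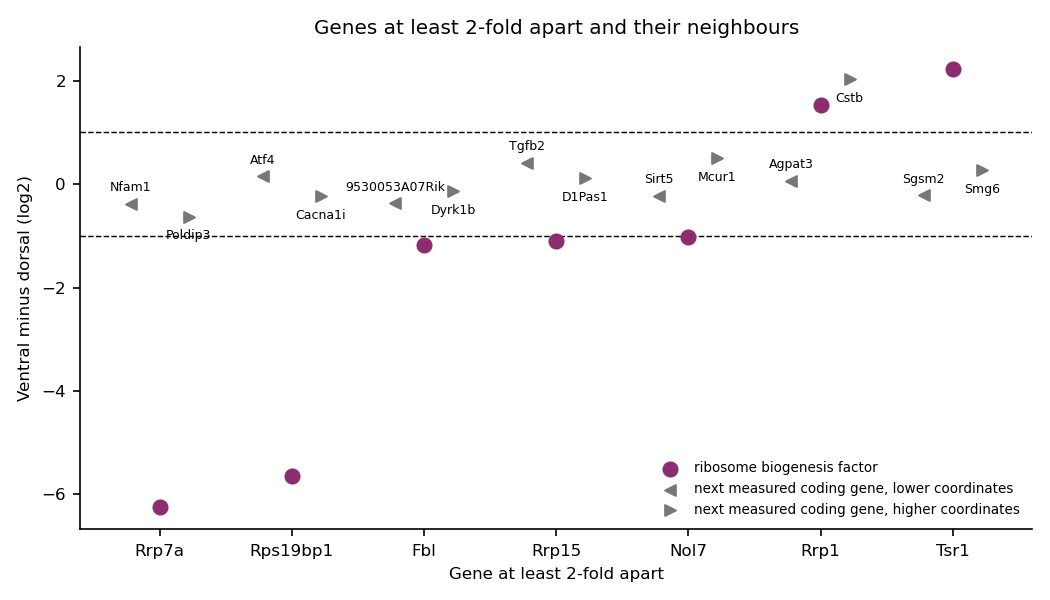
Ventral minus dorsal difference (log2) of the 7 ribosome biogenesis factors at least 2-fold apart (purple circles) and of the nearest measured coding gene at lower (left triangles) and higher coordinates (right triangles). Cstb, beside Rrp1, is the 1 flanking gene past 2-fold (dashed lines).

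The 250 bases before the annotated starts of Rrp7a and Rps19bp1 are shown because these genes carry the widest differences and lie the same way. They are from RefSeq, build GRCm38.p6, minus strand, at chr15:83122802-83123051 for Rrp7a and chr15:80264307-80264556 for Rps19bp1, written from 5′ to 3′. Capitals mark the hexamer CACGTG, the E-box that Myc and Max bind among other factors.
Rrp7a: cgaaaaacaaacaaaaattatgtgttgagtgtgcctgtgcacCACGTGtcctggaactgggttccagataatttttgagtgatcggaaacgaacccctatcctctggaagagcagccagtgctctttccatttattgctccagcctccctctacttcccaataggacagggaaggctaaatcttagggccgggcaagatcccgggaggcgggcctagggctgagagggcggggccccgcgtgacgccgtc
Rps19bp1: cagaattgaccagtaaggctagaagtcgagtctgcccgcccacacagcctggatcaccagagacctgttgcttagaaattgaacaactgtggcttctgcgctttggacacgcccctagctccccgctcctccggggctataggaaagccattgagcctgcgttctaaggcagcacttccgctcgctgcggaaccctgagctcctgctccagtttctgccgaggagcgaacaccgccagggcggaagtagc
Rrp7a has 1 E-box, whose first base lies at -208 from the start, and these letters are not in the Rps19bp1 window.

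Across members, E-box letters were more frequent in promoter windows than across coding genes. The RefSeq table held windows, from 250 bases before to 50 after a start, for 43 of the 54 members and for 17492 coding genes. CACGTG, which reads the same on both strands, was in a window of 11 members (25.6%) and of 8.91% of coding genes. CCGGAAG on either strand, letters that Ets-family factors bind, was in 14 members (32.6%) and 12.9% of coding genes. Matches of the 2 motifs shared bases in 0 members, and Nop2, Tsr1, Utp18 and Utp4 had both. Another 6 motifs were searched on both strands: GCATGCGC and AAGATGGC were each in 4.65% of members, CCAAT in 32.6% and TATAAA in 11.6%. Over coding genes these shares were 3.94%, 3.57%, 42.3% and 14.8%. Longer motifs of Zbtb33 and Zfp143 were in 1 and 0 members and in 0.755% and 0.463% of coding genes. Members' windows also held more CpG, with a median of 21 in the first listed window beside 13 for coding genes. The part of CpG content in the motif shares was not tested.

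Examples of the E-box with its flanks are shown to compare Tsr1, the member with the widest ventral excess, with 4 others that were not apart, of which Nop2 was under the background mark on both arrays, in the strand of the gene and with the E-box in capitals. They lie in GRCm38.p6 at chr11:74898092-74898121 (plus strand) for Tsr1, chr6:125131811-125131840 (plus) for Nop2, chr1:34439696-34439725 (plus) for Imp4, chr11:107189407-107189436 (minus) for Nol11 and chr8:106893643-106893672 (plus) for Utp4.
Tsr1: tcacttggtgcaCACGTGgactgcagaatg
Nop2: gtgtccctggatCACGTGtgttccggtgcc
Imp4: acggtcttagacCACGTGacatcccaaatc
Nol11: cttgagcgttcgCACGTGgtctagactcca
Utp4: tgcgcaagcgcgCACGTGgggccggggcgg
The E-box was present at both extremes: Rrp7a, with the widest dorsal excess, and Tsr1, with the widest ventral excess, both had it. Over the 11 members with the E-box the median difference was 0.047. It was -0.015 over the 31 kept members whose windows lacked the E-box, Rps19bp1 among them. Any link between the E-box and the differences was not tested.

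**Figure D4:**
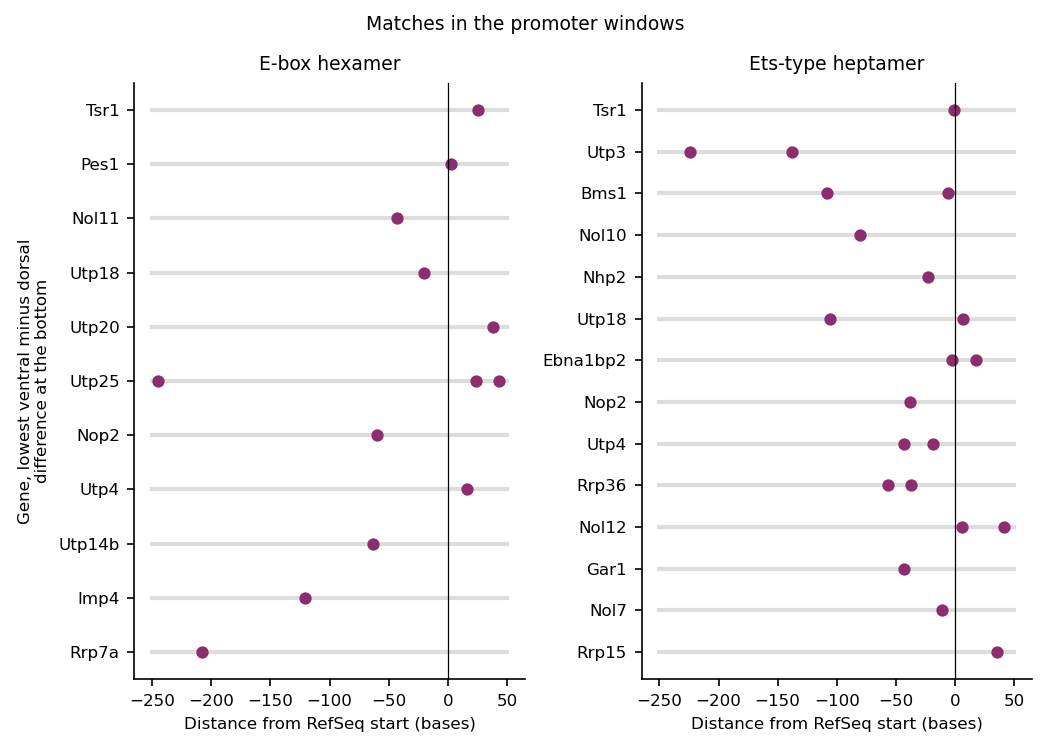
Position of each match (first base, in bases from the RefSeq start) for members with the E-box hexamer (left) and the Ets-type heptamer (right), with genes ordered by ventral minus dorsal difference from lowest (bottom) to highest (top). Grey bars span the window; Rrp7a and Tsr1 stand at opposite ends of the left panel.

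Small nucleolar RNAs (snoRNAs) guide modification of ribosomal RNA, and several are encoded within genes of this group. Of 14 snoRNA genes overlapping members, 8 were measured, in 5 members, and 4 of these exceeded the mark on both arrays. Snord11, in Nop58, was at 5.62 dorsally and 4.41 ventrally, 2.32-fold higher dorsally, and its host was higher dorsally too. Snora75 and Snord82, in Ncl, were at 6.77 and 6.51 and at 4.61 and 3.95, both lower ventrally, while the deposited value of Ncl was slightly higher there. Snord23, in Nop53, was at 7.09 and 6.75. Snord11 was the only one of the 8 at least 2-fold apart. Whether probes for such short genes also read RNA of the host gene was not tested.

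Among members, 14 overlap another measured coding gene, and no source used here states whether their probes separate the strands. Nol7 overlaps Ranbp9, which was 2.52-fold higher ventrally at 6.83 against 5.50, the direction opposite to Nol7. Utp14b overlaps Acsl3, which was 2.26-fold higher dorsally at 5.97 against 4.79, while Utp14b itself was under the mark. Nop56 overlaps Idh3b, at 5.30 and 5.50. Values of such pairs are less certain where probes fall in shared sequence.

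Other genes of the pathway, from 5 lists of 125 measured genes, split differently. Of 112 kept, 18 (16.1%) were ventral-high and 4 (3.57%) dorsal-high, beside 9.44% and 4.88% of all kept genes, with a median difference of 0.012. These lists were drawn up with earlier results of these data known, and the contrast with the members has no test. Of 11 kept genes of RNA polymerase I, which transcribes the precursor, 2 were ventral-high: Taf1b, of the promoter-binding factor, at 5.72 against 3.48, or at least 3.48-fold, and Polr1c, a subunit shared with polymerase III, at 5.41 against 3.33, or at least 2.81-fold. Rrn3, the initiation factor, was at 4.57 dorsally and 4.04 ventrally. Of 14 kept genes of the RNA exosome, the nuclease that trims the precursor, 2 were ventral-high and 0 dorsal-high. Exosc7 was at least 1.95-fold higher ventrally at 4.88 against 3.85. Mtrex, the exosome's helicase that Nop53 recruits, was 4.47-fold higher there at 7.69 against 5.53. Exosc6 was 1.92-fold higher dorsally at 6.18 against 5.24. Of the 14 genes, 8 were higher dorsally and 6 ventrally.

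Other small-subunit factors had 5 of 34 kept genes ventral-high and 2 dorsal-high. Fcf1, a nuclease-like processome protein, was 7.55-fold higher dorsally at 9.31 against 6.39, the direction of Rrp7a, and Tsr2, an escort of ribosomal protein Rps26, 3.35-fold at 6.10 against 4.36. Riok1, a kinase that acts on late small-subunit precursors, was 3.81-fold higher ventrally at 6.27 against 4.34, and Dcaf13 3.29-fold at 7.72 against 6.00. Other large-subunit factors had 7 of 45 ventral-high and 2 dorsal-high. Bccip was 10.8-fold higher ventrally at 8.11 against 4.67, Brix1 8.15-fold at 7.11 against 4.08, and Rpf2, the partner of Rrs1 in placing the 5S particle, 6.77-fold at 7.25 against 4.50. Nifk, which binds the cell cycle antigen Ki-67, was at least 11.4-fold higher dorsally at 7.43 against 3.83. Of 8 kept snoRNP assembly genes, 5 were higher ventrally and 3 dorsally. Ruvbl1, an ATPase of the box C/D loading complex, was 4.66-fold higher ventrally at 6.93 against 4.71 and Rpap3 at least 1.57-fold. Znhit6 was 1.92-fold higher dorsally at 6.43 against 5.48.

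**Figure D5:**
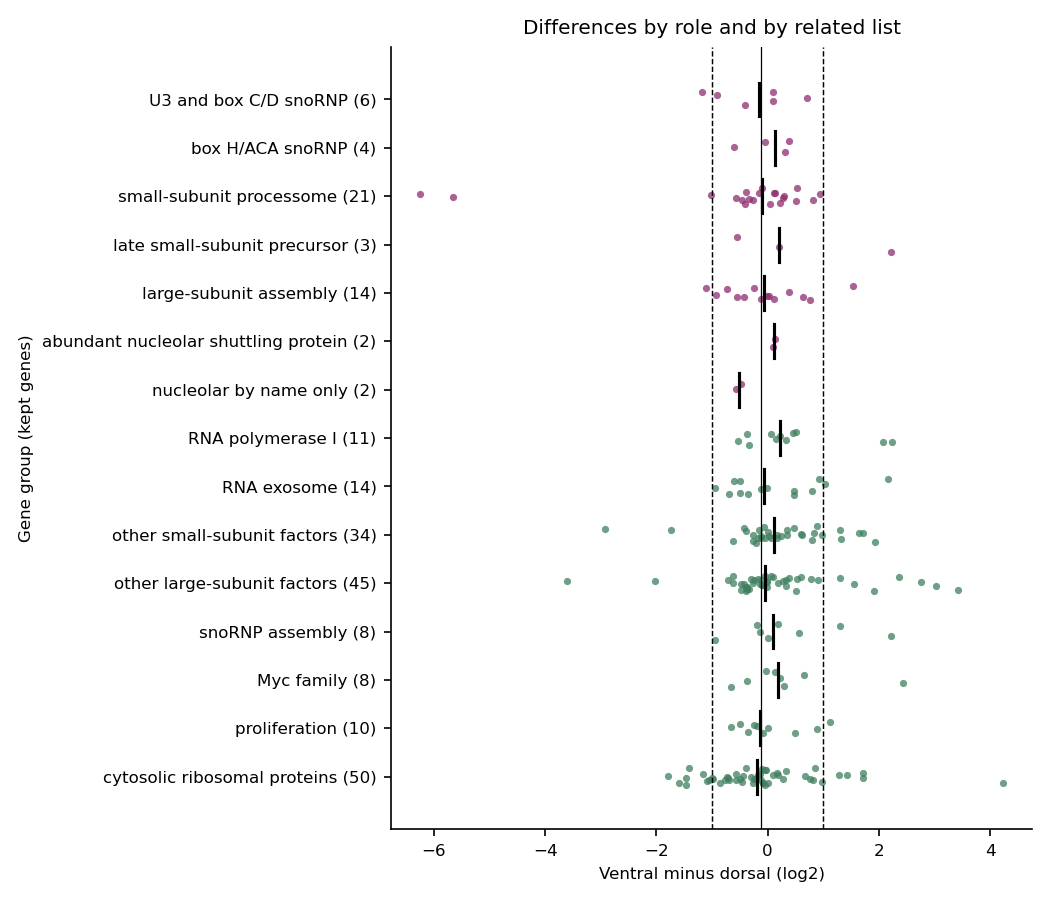
Ventral minus dorsal difference (log2) of kept genes by role of the ribosome biogenesis factors (purple) and by related list (green), with the number of genes in brackets, vertical position within a row being random. Short black bars are medians, dashed lines mark 2-fold and the thin line is the median of all kept genes, -0.12. Group medians run from -0.52, for the genes nucleolar by name only, to 0.23, for RNA polymerase I.

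Tissue identity was checked against 6 marker lists, whose medians below are over all measured genes of a list. All 7 sclerotome genes had higher dorsal than ventral deposited values, 3 of them at least 2-fold. The list medians were 5.54 and 3.98 in the dorsal and ventral array. Pax1 and Nkx3-2 were under the background mark on both arrays, so no difference could be detected for them, and Sox9 was only 1.11-fold apart. Of 6 coelomic epithelium genes 2 were ventral-high, with medians of 3.62 and 4.50. Of 6 measured endothelial genes 5 were kept and 3 ventral-high, with medians over the 6 of 3.65 and 4.91, while of 5 erythroid genes 0 were ventral-high and 1 dorsal-high. Of 5 notochord genes 2 were dorsal-high, among them Shh, at least 2.30-fold at 5.12 against 3.91, with medians of 4.27 and 3.91. The list was mixed: Krt18 was 1.86-fold higher ventrally at 5.17 against 4.27, and Krt8 was at 5.14 dorsally and 5.09 ventrally. Foxa2 was under the background mark on both arrays. Of 5 neural genes 3 were kept: Nefm was 6.67-fold higher ventrally at 8.19 against 5.45, and Tubb3 2.21-fold higher dorsally at 5.78 against 4.64, with medians of 3.90 and 3.85. The part of these cell types in the differences of Rrp7a, Rps19bp1, Tsr1 and Rrp1 was not tested.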

How the data were processed

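RNA of the 2 pieces, 200 to 1000 pg per the labels' protocols, was amplified by a single-primer isothermal method before hybridisation, which can over- or under-represent transcripts by chance. The deposited values are log2 expression, 1 per gene number and array. Expression Console and RMA (Affymetrix) are listed in the submitters' processing notes. Their versions, the annotation and the set of arrays normalized jointly were not stated in the sources. Of 25429 features, 754 without a symbol were left out; the other 24675 matched RefSeq (GRCm38.p6) by gene number. Arrays were assigned by title. Single arrays allow no test, so genes were counted by size.

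The members and lists were chosen with earlier results of these data known. Every member could be named; of other lists, up to 4 genes with the greatest difference and a value above the background mark. The 8 motifs, and some flanking or overlapping genes, were chosen after the values were seen. Loess used a span of 0.3. Motif searches and fold counts were tested on simulated data. Python 3.11.15, numpy 2.4.6, pandas 2.3.3, statsmodels 0.14.6 and matplotlib 3.10.9 were used.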

Additional observations from a re-analysis of the deposited data

How the results depend on the processing

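No paired analysis was possible because there was 1 array per tissue. Rrp7a, Rps19bp1, Tsr1 and Rrp1 kept their direction and stayed at least 2-fold apart under each of centring, a loess on level, a loess on genomic span (chosen after seeing the data) and quantile normalization. These settings rework the same pair of arrays and move large differences little. They cannot show whether a difference would recur on other arrays. Dorsal-high members numbered 5 of 52 on the deposited values and 3 of 52 with centring, where all kept genes fell from 4.88% to 3.77%. With the second mark, 5.48, as the floor they were 3 of 16 (18.8%), beside 12.7% of all kept genes at that level. That floor is on the higher array, so 1 high tissue is enough to pass it. It therefore favours genes that are apart, and the count adds no support. At 1.5-fold, 7 members (13.5%) were higher ventrally and 9 (17.3%) dorsally, beside 16.3% and 15% of all kept genes. At 3-fold the counts were 1 (1.92%) and 2 (3.85%), beside 4.48% and 1.63%. The median difference of members, -0.029, had no stable sign: it was -0.10 after quantile normalization, 0.089 after centring, -0.044 after the loess on level, 0.084 after that on span, -0.044 with no floor, 0.071 and 0.031 with the background mark and the second mark as floors, 0.0072 without Nol3, Nol4 and Nol4l, and -0.25 as a mean. The medians of all kept genes were -0.12 on the deposited values, -0.065 after quantile normalization and 0 after centring. They were -0.0033 after the loess on level and -0.0097 after that on span. With the background mark and the second mark as floors they were 0.025 and 0.34. Signal over background limits 20 of 54 members, which were under the mark on both arrays. Fbl, counted as dorsal-high, is 1 of them.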

Other observations

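Genes related to growth were also measured. Of 8 kept genes of the Myc family, whose proteins bind the E-box, Max was 5.43-fold higher ventrally at 6.83 against 4.38, while Myc was at 4.81 dorsally and 4.94 ventrally and Mycn at 4.63 and 3.97. Of 10 kept proliferation genes only Mcm4, a subunit of the replicative helicase, was at least 2-fold apart, 2.17-fold higher ventrally at 7.19 against 6.07. Cdk1, the mitotic kinase, was at 7.47 dorsally and 8.36 ventrally. Mcm5 was 1.58-fold higher dorsally at 5.37 against 4.71. Of the 10 genes, 6 were higher dorsally and 4 ventrally. The median difference of the proliferation list was -0.14, beside -0.12 for all kept genes. However, 8 of the 10 were above the second mark on at least 1 array. The median of all kept genes at that level was 0.34.

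Cytosolic ribosomal protein genes, taken by symbol, had 5 of 50 kept genes (10%) ventral-high and 8 (16%) dorsal-high. The shares of all kept genes were 9.44% and 4.88%, and the median difference of the list was -0.20. The 8 included the paralog Rpl7l1, and Rpl34, which was under the background mark on both arrays at 3.60 and 2.51. Rpl29 was at least 14.0-fold higher ventrally at 7.73 against 3.50, and Rps26 3.29-fold at 6.82 against 5.10. Tsr2, which escorts Rps26, was higher dorsally. Rps15a was at least 2.60-fold higher dorsally at 5.30 against 3.50. Many ribosomal protein genes have processed pseudogenes whose sequence their probes may share, so these values are uncertain.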
